A study of Rattus norvegicus with 15 samples.

Results

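Transcripts of the transcription factor NF-kB and of inflammatory cytokines linked to it were described in rat brain after vagus nerve stimulation (VNS). The members were 10 genes named by symbol, namely the subunit genes Nfkb1, Nfkb2, Rela and Relb, the inhibitor gene Nfkbia, the cytokine genes Tgfb1, Tnf, Il1b and Il6, and the adhesion gene Icam1. Of these, 9 matched a record each among 18278 RefSeq transcript records, and 1, Relb, matched none and was not analysed here. The members were chosen with their hippocampal reads in VNS and control libraries in view, and Nfkb1 also with its cortex reads. Those values are therefore given as a description, with no p-value for a member.

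For hippocampus there were 4 VNS and 3 control libraries, and for cortex 4 VNS and 4 control libraries, all of Rattus norvegicus. VNS rats had been stimulated through an implanted device for 30 min on each of 4 days. Control rats carried a sham device. Hippocampal rats of both groups also performed a novelty preference task of 10 min on days 2 to 4, and brains were taken immediately after the last stimulation. The labels used here state no strain, age or dissected subregion. They also do not say whether libraries share litters or days, so p-values measure the spread between these libraries.

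NF-kB is a family of dimeric transcription factors held in the cytoplasm of resting cells by inhibitory IkB proteins. Signals from receptors for TNF, interleukin 1 and microbial products activate the IKK kinase complex, which marks IkB for degradation and releases the dimer to the nucleus. Nfkbia, which encodes IkB-alpha, is itself a target of NF-kB and closes a negative feedback loop. In brain, microglia, endothelium and astrocytes are the main cells of inflammatory NF-kB signalling, and resting levels of Tnf, Il1b and Il6 transcripts are low.

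The promoters of Nfkb1, Nfkb2 and Nfkbia are shown because these members are known targets of NF-kB itself, which binds DNA at kappa-B sites. Each runs 5′ to 3′ on the strand of its gene, from 250 bases before to 50 bases after the annotated start in RefSeq's GRCr8 assembly. Capitals mark a match to GGGANTTTCC, a form of the kappa-B site, searched on both strands; these are the letters shared by a decamer of Nfkb2 and one of Nfkb1, with N where they differ. Nfkb1 (chr2:226805413-226805712, minus strand), Nfkb2 (chr1:255108124-255108423, plus strand) and Nfkbia (chr6:78597023-78597322, minus strand) read as follows.
Nfkb1: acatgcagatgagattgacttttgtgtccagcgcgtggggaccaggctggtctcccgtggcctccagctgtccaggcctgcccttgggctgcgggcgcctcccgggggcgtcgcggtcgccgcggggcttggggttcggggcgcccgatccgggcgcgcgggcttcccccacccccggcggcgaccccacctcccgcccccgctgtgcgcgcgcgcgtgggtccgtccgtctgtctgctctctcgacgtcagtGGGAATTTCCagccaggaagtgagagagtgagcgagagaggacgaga
Nfkb2: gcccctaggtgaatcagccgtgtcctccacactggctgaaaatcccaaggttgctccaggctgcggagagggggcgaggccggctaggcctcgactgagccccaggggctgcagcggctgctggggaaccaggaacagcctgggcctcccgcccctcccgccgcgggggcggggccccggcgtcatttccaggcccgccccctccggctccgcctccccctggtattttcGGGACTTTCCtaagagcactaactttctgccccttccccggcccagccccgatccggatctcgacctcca
Nfkbia: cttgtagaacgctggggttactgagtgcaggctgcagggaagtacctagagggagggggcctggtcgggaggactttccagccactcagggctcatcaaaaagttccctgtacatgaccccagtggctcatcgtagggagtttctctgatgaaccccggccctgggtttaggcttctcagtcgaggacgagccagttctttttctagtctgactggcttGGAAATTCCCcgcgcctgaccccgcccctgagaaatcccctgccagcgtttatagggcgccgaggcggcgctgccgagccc

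Promoters were available for 9 members, and 4 of these held the motif, those of Nfkb1, Nfkb2, Nfkbia and Il6. In Nfkbia the match lies on the opposite strand, where it reads GGGAATTTCC, the same letters as the match in Nfkb1. Among all 33469 promoters of this length, 121 (0.362%) held the motif. The stricter form GGGACTTTCC, found in Nfkb2 and contained in the first motif, was in 37 promoters (0.111%). The letters were chosen after the members' promoters had been read, so the count is a description, and a match is not a measured binding site. The windows of Rela, Tgfb1, Tnf, Il1b and Icam1 held no match to these letters.

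Hippocampal libraries held 16728486 to 51463555 counts and cortex libraries 329130 to 435296. Ribosomal RNA took 9.34% to 73.1% of the counts of hippocampal VNS libraries and 7.11% to 19.3% of those of controls, and VNS library 3 kept 4268626 counts in mRNA records. Even values made up 54.2% of counts of 1 to 20 in hippocampal VNS library 1 and 73.9% to 79.0% in the other 6, and the header records no paired-end option. Markers of forebrain excitatory neurons (Neurod6, Slc17a7, Neurod2 and Tbr1) summed to 1205 to 1908 CPM (read counts scaled to a common library size by TMM) in VNS libraries. They summed to 239.8 and 7.05 CPM in control libraries 1 and 2 and to 1313 CPM in control library 3. Control libraries 1 and 2 therefore go against their tissue label in these markers. Log2 fold changes of members and of genes named from the pathway lists are given with and without them. Those of marker genes are given with all 7 libraries only. In cortex libraries the same list summed to 440.1 to 754.2 CPM in VNS and 446.0 to 592.8 CPM in controls. The strand setting of the cortex counts may be wrong, as described below, so these sums do not settle the tissue.

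**Figure D1:**
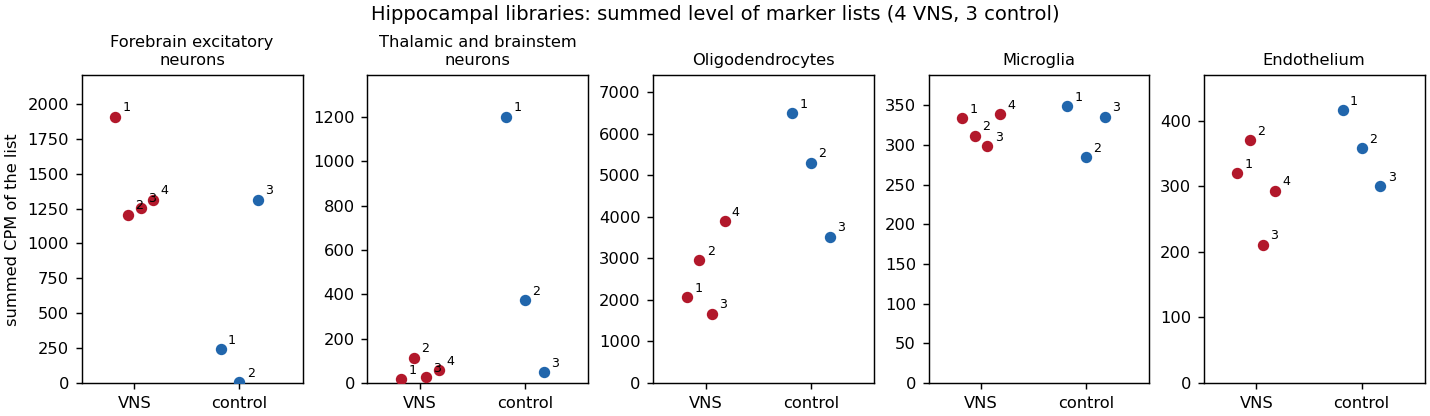
Summed CPM of marker lists in hippocampal libraries, VNS left and control right, with a point per library labelled by its number. Forebrain excitatory markers are near 0 in control library 2 and low in control library 1, thalamic and brainstem markers are highest in these libraries, and microglial sums lie between 284.7 and 349.2 CPM in all 7.

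Compared per length, the members of hippocampal tissue spanned a wide range of levels. Nfkbia was highest, at a mean of 19.2 CPM per kb over the 7 libraries (13.2 to 25.1), above every other member in each library. Rela followed at 8.60 CPM per kb and Nfkb1 at 7.28, and since Rela was higher in 6 of 7 libraries and their ranges overlapped, these neighbours were not separated in every library. Tgfb1 stood at 4.08 CPM per kb, below Nfkb1 and above Icam1 in 7 of 7 libraries. Icam1 at 1.06 and Nfkb2 at 0.82 CPM per kb had overlapping ranges, with Icam1 higher in 6 of 7. The inflammatory cytokines were lowest, at 0.24 CPM per kb for Tnf, 0.21 for Il1b and 0.05 for Il6, and Tnf exceeded Il1b in 4 of 7 libraries.

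**Figure D2:**
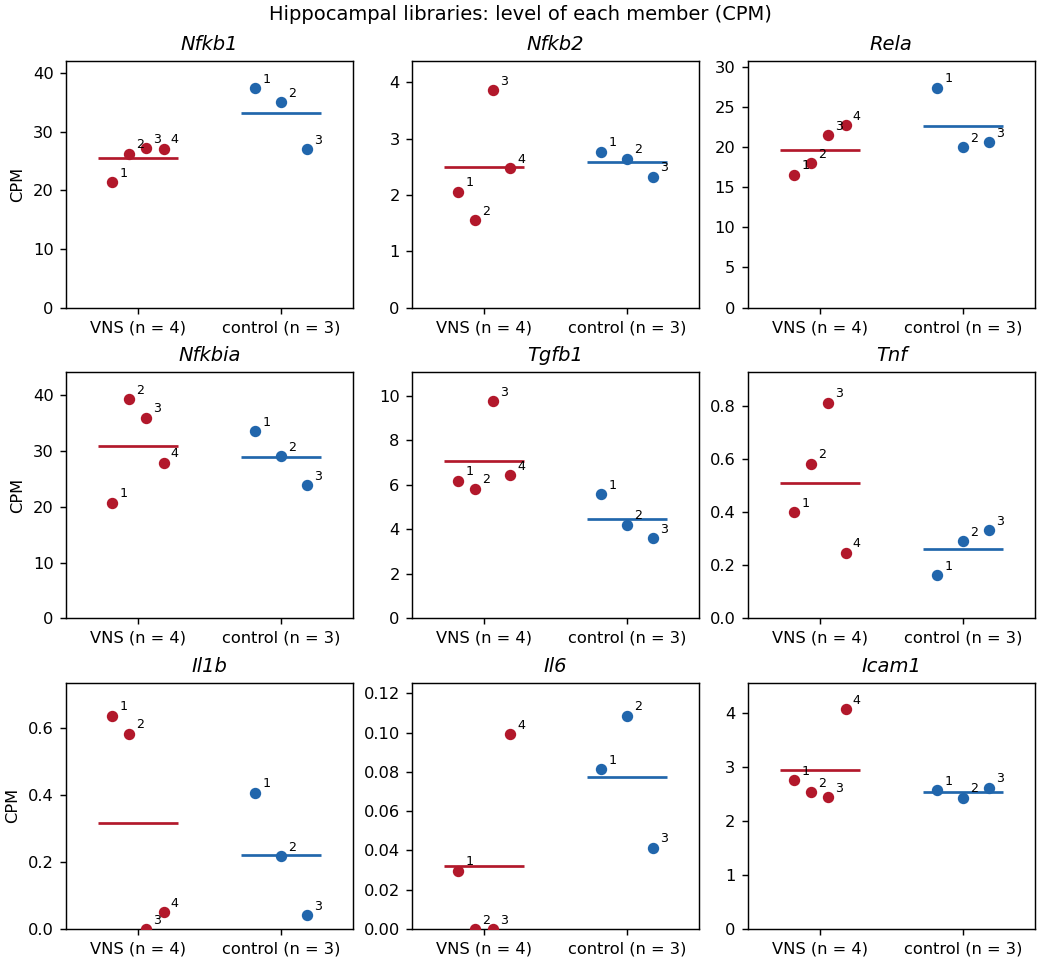
CPM of the 9 matched members in hippocampal libraries, VNS left and control right, with a point per library labelled by its number and a bar at the group mean. Tgfb1 is the member whose VNS libraries all lie above the controls, and Nfkb1 in control library 3 lies level with VNS libraries 3 and 4.

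None of the 8 members tested passed in the hippocampus with edgeR's quasi-likelihood test at an adjusted p of 0.05, where 0% of the 12728 records tested passed, and Il6 fell under the filter on low counts. At an unadjusted p under 0.05 stood 1537 of all records (12.1%), 4.79% of all being higher and 7.28% lower in VNS libraries. DESeq2 called 17 records (0.134%), none of them a member. Of the 8 members, 5 had higher and 3 lower values in VNS libraries, with a median log2 fold change of 0.17 against -0.01 over all records tested, of which 49.2% had higher values. An absolute log2 fold change of at least 0.5 was reached by 3 of the 8 and by 25.9% of all records. Reads of a bulk library do not separate fewer cells of a type from less RNA per cell.

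Among the subunits, Nfkb1 encodes the precursor of the DNA-binding partner of the canonical dimer. Its record, NM_001276711, spans chr2:259330377-259444869 on the minus strand of build rn5, the build of all records here. Its level was 21.4, 26.3, 27.2 and 27.1 CPM in VNS libraries 1 to 4, against 37.5, 35.0 and 27.0 CPM in control libraries 1 to 3. The groups overlapped, because control library 3 lay just under VNS libraries 3 and 4. Nfkb1 averaged 25.5 ± 2.79 CPM in VNS libraries (SD, n = 4) and 33.2 ± 5.46 CPM in controls (SD, n = 3), a log2 fold change of -0.38 (SE 0.16). Without control libraries 1 and 2 it was -0.10 (SE 0.21), and without control library 3 it was -0.51 (SE 0.15). Control libraries 1 and 2, the pair low in forebrain markers, held the highest Nfkb1 levels of the 7. Oligodendrocyte markers, the genes of myelinating glia, summed to 2068, 2956, 1664 and 3890 CPM in VNS libraries 1 to 4, against 6484, 5302 and 3516 CPM in control libraries 1 to 3. They too were highest in control libraries 1 and 2. VNS library 3, with the lowest sum of the 7, held 134 reads of Nfkb1 and was level in it with VNS library 4. The part of oligodendrocytes in the Nfkb1 values was not tested.

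Rela (NM_199267, chr1:227928092-227938571, plus strand), which encodes the transactivating subunit of the canonical dimer, was at 16.6, 18.01, 21.5 and 22.8 CPM in VNS libraries and at 27.5, 20.02 and 20.6 CPM in controls. The groups overlapped, with only control library 1 above every VNS library. Its log2 fold change was -0.21 (SE 0.18), or -0.08 without control libraries 1 and 2 (SE 0.24) and -0.05 without control library 1. The ratio of Rela to Nfkb1 per length was 1.26, 1.11, 1.28 and 1.36 in VNS libraries and 1.19, 0.93 and 1.24 in controls, and these groups overlapped too. Nfkb2 (NM_001008349, chr1:273483943-273490197, plus strand), the precursor of the non-canonical partner, was at 2.06, 1.55, 3.86 and 2.48 CPM in VNS libraries and at 2.77, 2.65 and 2.32 CPM in controls. Its VNS libraries lay on both sides of the controls, at a log2 fold change of -0.11 (SE 0.33). The highest of them, VNS library 3, held 19 reads of this record, and without it the value was -0.34 (SE 0.26). The sign turned without VNS library 2 (0.05) and without control libraries 1 and 2 (0.01).

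Nfkbia (NM_001105720, chr6:85803990-85807223, minus strand) measured 20.7, 39.3, 36.0 and 27.9 CPM in the VNS libraries, against 33.6, 29.1 and 23.9 CPM in controls. VNS libraries were both the highest and the lowest of the 7, so the control range lay inside the VNS range. They averaged 31.0 ± 8.34 CPM (SD, n = 4) against 28.9 ± 4.83 CPM in controls (SD, n = 3), a log2 fold change of 0.10 (SE 0.23). The value was 0.35 (SE 0.33) without control libraries 1 and 2, and it turned to -0.03 without control library 3 and -0.05 without VNS library 2.

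Set against Nfkb1 in the same library, a measure free of scaling between libraries, Nfkbia was relatively more abundant in VNS hippocampus. The ratio of Nfkbia to Nfkb1 per length was 2.45, 3.78, 3.34 and 2.60 in VNS libraries, against 2.26, 2.10 and 2.23 in controls. All VNS ratios lay above all control ratios, control library 3 included. Of 11373 other records with a mean of at least 1 CPM, 1635 (14.4%) also had ratios to Nfkb1 above all controls in every VNS library, so this separation is common when Nfkb1 is the denominator. It was chosen after the values were seen and was not tested.

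Tgfb1 (NM_021578, chr1:83742151-83758472, plus strand), an anti-inflammatory and growth-regulating cytokine made in brain by microglia and vascular cells, was the member with the clearest order of groups. It was at 6.18, 5.83, 9.76 and 6.42 CPM in VNS libraries and at 5.58, 4.20 and 3.60 CPM in controls. Every VNS library lay above every control, as in 594 of all 12728 records tested (4.67%), and the gap between VNS library 2 and control library 1 was small. Tgfb1 averaged 7.04 ± 1.82 CPM in VNS libraries (SD, n = 4) and 4.46 ± 1.01 CPM in controls (SD, n = 3), a log2 fold change of 0.63 (SE 0.26). The value was 0.46 (SE 0.21) without VNS library 3, whose level came from 48 reads, and 0.92 (SE 0.39) without control libraries 1 and 2. Among the alternatives run it stayed between 0.46 and 0.92. Microglial markers summed to 298.4 to 339.2 CPM in VNS libraries and 284.7 to 349.2 CPM in controls, and endothelial markers to 211.0 to 370.2 CPM in VNS libraries and 299.6 to 415.9 CPM in controls. Astrocyte markers summed to 1480 to 2525 CPM in VNS libraries and 1016 to 1625 CPM in controls, mostly from Gfap and Gja1. Of the 4 tested, 3 had higher values in VNS libraries, while Aldh1l1 had lower ones (log2 fold change -0.61, SE 0.30). Aqp4 and Slc1a3 were at 0 in all 7 libraries, but counts are per transcript record and these genes have 5 and 4 records. A 0 there need not mean that the gene is silent. The 4 choroid plexus and meningeal markers summed to 12.3 to 25.2 CPM in VNS libraries and 9.91 to 27.1 CPM in controls, but their members differed. Dcn, a matrix proteoglycan of fibroblasts, was at 11.3, 13.9, 17.3 and 9.32 CPM in VNS libraries and at 4.62, 6.52 and 8.84 CPM in controls. Like Tgfb1, it was above all controls in every VNS library, as in 4.67% of all records tested, but control library 3 lay just under VNS library 4. Dcn too was highest in VNS library 3 (log2 fold change 0.94, SE 0.29, edgeR adjusted p = 0.40). Lum, another such proteoglycan, was at 6.34, 2.14, 7.11 and 1.44 CPM in VNS libraries and at 1.20, 1.52 and 1.28 CPM in controls (log2 fold change 1.63, SE 0.58). The remaining markers of this list, Ttr and Folr1, went the other way, at log2 fold changes of -2.12 (SE 1.26) and -0.16 (SE 0.76). Ttr was highest in control library 1, at 20.2 CPM. The part of these cells in the Tgfb1 values was not tested.

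**Figure D3:**
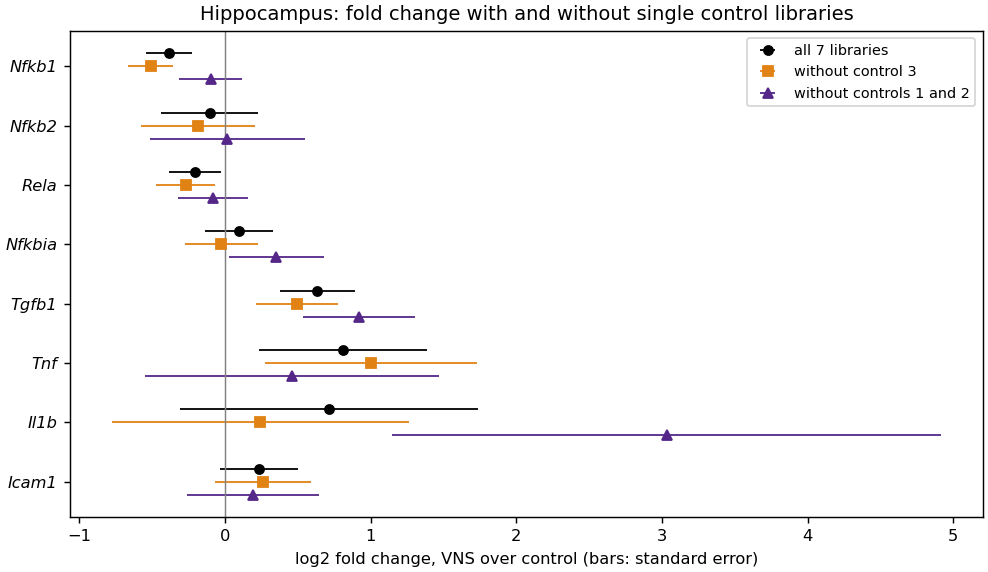
Log2 fold change of VNS over control (x axis) with its standard error for the 8 members tested in the hippocampus, from all 7 libraries, without control library 3, and without control libraries 1 and 2. Nfkb1 moves from -0.51 to -0.10 between the last 2 settings, Tgfb1 is positive in all 3, and Il1b has the widest bars.

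The inflammatory cytokines rested on few reads. Tnf, the prototype activator of the canonical pathway, had 27, 12, 4 and 10 reads in VNS libraries 1 to 4 and 8, 16 and 16 in controls. Scaled for depth these were 0.40, 0.58, 0.81 and 0.25 CPM in VNS libraries and 0.16, 0.29 and 0.33 CPM in controls. VNS libraries 1 to 3 lay above all controls and VNS library 4 between them, at a log2 fold change of 0.81 (SE 0.57). The value was 0.46 (SE 1.01) without control libraries 1 and 2.

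Il1b, an interleukin released mainly by microglia in brain, had 43, 12, 0 and 2 reads in VNS libraries and 20, 12 and 2 in controls. These were 0.64, 0.58, 0 and 0.05 CPM in VNS libraries and 0.41, 0.22 and 0.04 CPM in controls, where 3 reads in VNS library 3 would have been 0.61 CPM. The 0 in that library is thus within what its depth could miss. Both groups spanned a wide range, and the log2 fold change of 0.71 (SE 1.02) became 0.11 without VNS library 1, 1.45 without control library 1, 0.24 without control library 3 and 3.03 (SE 1.89) without control libraries 1 and 2. That last value compares 4 VNS libraries with the 2 reads of control library 3.

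Il6, the interleukin that signals through gp130 and STAT proteins, had 2, 0, 0 and 4 reads in VNS libraries and 4, 6 and 2 in controls. The 3 reads that a count of 0 allows correspond to 0.15 CPM in VNS library 2 and 0.61 CPM in VNS library 3, above every value seen for Il6. Of the 18 counts of Tnf, Il1b and Il6 outside VNS library 1, 18 were even, a pattern seen when both mates of a pair are counted. The limits from 3 counts are then too low, since those counts stand for fewer than 3 fragments, here and for Il1b. No difference was detectable at this depth.

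Icam1, an endothelial adhesion molecule for leukocytes and a classical NF-kB target, was at 2.76, 2.52, 2.44 and 4.06 CPM in VNS libraries and at 2.57, 2.43 and 2.61 CPM in controls. VNS libraries 2 and 3 lay within the narrow control range, VNS library 1 just above it and VNS library 4 well above. The log2 fold change was 0.24 (SE 0.27), 0.19 without control libraries 1 and 2, and 0.03 without VNS library 4. Of 11 endothelial marker records, 10 had lower values in VNS libraries (median log2 fold change -0.25).

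The records most like Nfkb1 across the 7 hippocampal libraries were Appl2, Thap4 and Tpp1. Their centred log2 levels differed from those of Nfkb1 by a root mean square of 0.06, 0.07 and 0.07, where Nfkb1 varied by 0.25 about its own mean and the median of 10761 records was 0.36. Appl2, for example, was at 30.5, 34.8, 41.3 and 37.4 CPM in VNS libraries and at 53.3, 51.4 and 39.2 CPM in controls. For Nfkbia the nearest were Leng1, Stap2 and Pidd1, at 0.09, 0.09 and 0.10. With so many records compared over 7 libraries, close matches arise readily, and these are a description.

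In the wider pathway, 7 lists of 98 genes held 78 tested records in the hippocampus, of which 39 had higher and 39 lower values in VNS libraries (median log2 fold change 0.01). By edgeR's quasi-likelihood test none of them passed, the smallest adjusted p being 0.40, where 0% of all records passed, nor with DESeq2. At an unadjusted p under 0.05 stood 5 of 78 against 12.1% of all records, 1 higher and 4 lower.

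Other Rel and IkB proteins and inhibitors had 5 higher and 3 lower values among 8 records. Nkiras2, a Ras-like protein that binds IkB, was at 4.06, 3.69, 1.63 and 5.33 CPM in VNS libraries and at 5.60, 5.40 and 5.94 CPM in controls. All VNS libraries lay below the controls, as in 4.61% of all records tested. The lowest, VNS library 3, rests on few reads, since 3 reads there would be 0.61 CPM. The log2 fold change of Nkiras2 was -0.57 (SE 0.33, edgeR adjusted p = 0.44), and -0.63 without control libraries 1 and 2. Tnip1, which inhibits NF-kB together with the deubiquitinase A20, was at 35.7 ± 5.82 CPM in VNS libraries and 31.6 ± 3.90 CPM in controls (log2 fold change 0.17, SE 0.17, and 0.06 without control libraries 1 and 2). The IKK complex and its upstream kinases and adaptors were evenly split, with 7 higher and 9 lower among 16 records and a median of -0.03. In this list Map3k14, the kinase of the non-canonical pathway, stood at -0.71 on that scale (SE 0.40), and its controls ranged from 5.85 to 21.6 CPM around the VNS range of 6.10 to 9.32 CPM. Without control libraries 1 and 2 it was -0.45 (SE 0.32). Map3k7, the kinase that activates IKK below the TNF and interleukin 1 receptors, was at 58.2 ± 4.83 CPM in VNS libraries and 49.6 ± 5.88 CPM in controls (log2 fold change 0.23, SE 0.13, and 0.09 without those controls).

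Receptor genes had 7 higher and 6 lower values among 13 records. Both chains of the interleukin 6 receptor were named, with values of opposite sign. Il6r, the ligand-binding chain, was at 24.7, 27.7, 33.7 and 31.8 CPM in VNS libraries and at 13.9, 11.2 and 26.01 CPM in controls (log2 fold change 0.79, SE 0.29, edgeR adjusted p = 0.40). Il6st, the shared signal-transducing chain gp130, was at 169.1, 147.0, 144.5 and 145.9 CPM in VNS libraries and at 207.9, 206.1 and 169.2 CPM in controls (log2 fold change -0.36, SE 0.14, adjusted p = 0.40). In both genes control library 3 lay next to the VNS libraries, and without control libraries 1 and 2 the values were 0.16 and -0.17.

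Targets of NF-kB had 7 higher and 5 lower values among 12 tested records. Ptgs2, which encodes the inducible cyclooxygenase and in forebrain is also expressed by excitatory neurons, was at 46.7, 20.1, 20.7 and 17.0 CPM in VNS libraries and at 1.95, 3.73 and 21.6 CPM in controls. Its log2 fold change was 1.53 (SE 0.79, edgeR adjusted p = 0.42), and 0.29 (SE 0.50) without control libraries 1 and 2. Sod2, the mitochondrial superoxide dismutase, was at 102.1, 99.9, 69.9 and 99.0 CPM in VNS libraries and at 158.3, 150.4 and 110.3 CPM in controls. All VNS libraries lay below all controls, as in 587 of all records tested (4.61%), and its log2 fold change was -0.59 (SE 0.19, edgeR adjusted p = 0.40), or -0.25 (SE 0.24) without control libraries 1 and 2.

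Interleukin 1 processing genes had 2 higher and 5 lower among 7 records, with values from -0.59 to 0.22. Nlrp3, the inflammasome sensor, was at 2.98 ± 0.57 CPM in VNS libraries and 3.26 ± 1.004 CPM in controls (log2 fold change -0.15, SE 0.29, and -0.06 without control libraries 1 and 2). For Casp8, the apoptotic protease, the log2 fold change was -0.59 (SE 0.63) at 0 to 1.17 CPM in VNS libraries and 0.87 to 1.24 CPM in controls, and -0.61 without those controls. In the interleukin 6 signalling list, Cntf, a neuroprotective cytokine of glia, was at 3.78, 3.40, 1.63 and 2.53 CPM in VNS libraries and at 7.33, 5.65 and 4.06 CPM in controls (log2 fold change -0.96, SE 0.32, edgeR adjusted p = 0.40). All its VNS libraries lay below the controls, as in 4.61% of all records tested, and the value without control libraries 1 and 2 was -0.47 (SE 0.46). For Jak1, the kinase bound to gp130, it was 0.32 (SE 0.19), and 0.20 without control libraries 1 and 2.

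TGF-beta signalling genes were evenly split, with 8 higher and 7 lower among 15 records and a median of 0.02. Ltbp3, which stores latent TGF-beta in the matrix, was at 30.6, 35.9, 34.6 and 35.5 CPM in VNS libraries and at 65.3, 61.3 and 34.9 CPM in controls. The Ltbp3 record overlaps one on the opposite strand. Hippocampal counts were made with no strand option, so these values may include reads of that neighbour. The log2 fold change of Ltbp3, -0.66 (SE 0.21, edgeR adjusted p = 0.40), was -0.04 (SE 0.19) without control libraries 1 and 2. For Tgfbr2, the ligand-binding receptor, the log2 fold change was -0.54 (SE 0.25), with 8.74 to 12.4 CPM in VNS libraries and 10.7 to 22.2 CPM in controls, and 0.06 (SE 0.28) without those libraries.

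**Figure D4:**
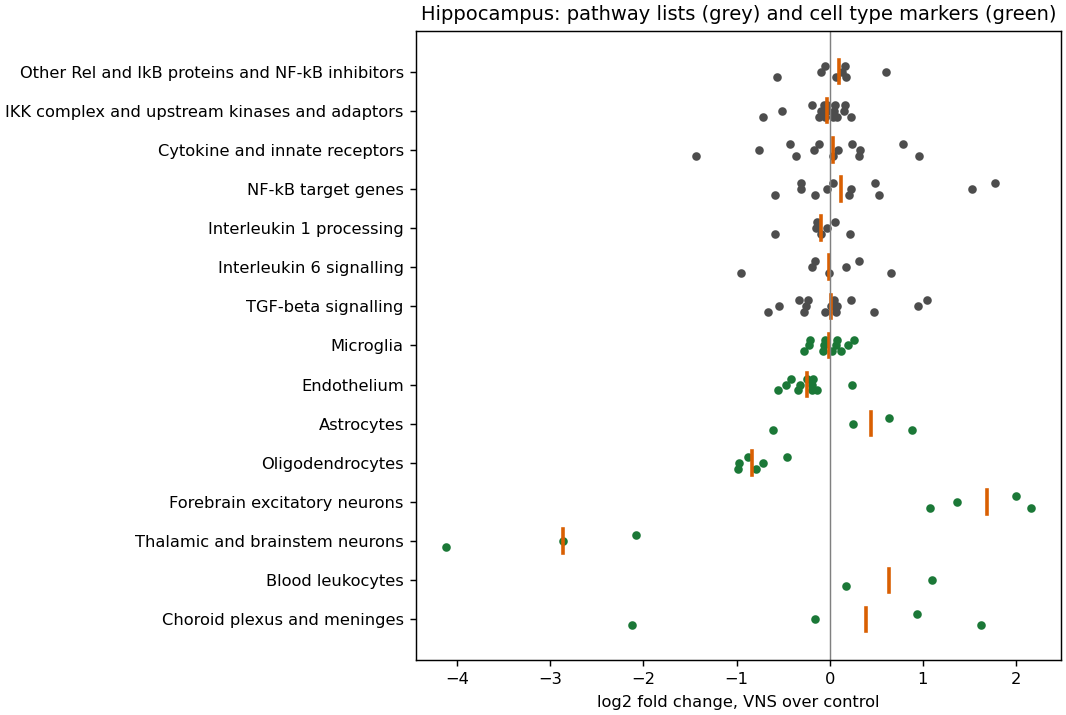
Log2 fold change of VNS over control (x axis) for every tested record of the 7 pathway lists (grey) and 8 marker lists (green) in the hippocampus, with an orange bar at each median. Pathway medians lie between -0.10 and 0.12, while medians of forebrain excitatory, thalamic and oligodendrocyte markers are 1.69, -2.86 and -0.84.

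Without control library 3, which leaves both controls low in forebrain markers, 1377 of 12931 records passed (10.6%), and 7 of 79 records of the pathway lists did. These were Il6r, Ltbp3, Mmp9, Ptgs2, Smad3, Sod2 and Tlr3, and no member was among them. Without control libraries 1 and 2, 0 of 13111 records passed, and 105 had an unadjusted p under 0.05.

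In the cortex the members were near the limit of detection. The file header records strand option 1 for these counts, and records with an opposite-strand neighbour overlapping them, 3.79% of all, took 35.5% of counts in cortex and 9.58% in hippocampus. The labels name a TruSeq stranded kit, whose reads usually match the strand opposite to the one that option 1 counts. The strand setting may therefore be wrong, and cortex counts may be largely reads from the opposite strand of each record, which was not tested. This touches every cortex value given here, the marker sums included, so they are given as reads on a record and not as a gene's level, although no member has an overlapping neighbour. Of 13 microglial markers, 3 to 9 were at 0 in each VNS library and 4 to 9 in each control. Among these was Ptprc, a gene of 5 records that was at 0 in every library of both tissues. Tnf and Il6 had 0 reads in all 8 libraries, where 3 reads over all of them would be 1.08 CPM.

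Nfkb1 stood out in the cortex, with 4, 12, 10 and 3 reads in VNS libraries 1 to 4 and 0 in each of the 4 controls. This was one of the values the member was chosen on, so it carries no test, and the record was under the filter on low counts. Pooled, the VNS libraries held 29 reads, or 20.8 CPM, while the 3 reads that 0 in the pooled controls allows would be 2.17 CPM. That limit covers counting error in the controls and not in the 29 reads, nor the spread between libraries, so no fold is given. It may also be too low, since the header records no paired-end option and both mates of a pair may have been counted. Of 13006 cortex records with any read, 2 (0.0154%) had 0 reads in all controls and at least 3 in each VNS library, Nfkb1 and Pabir2, which was named after its values were seen, and 0 records had the reverse pattern. The pattern was drawn from the reads of Nfkb1 itself, whose lowest VNS count was 3. Its rarity is therefore a description and lends Nfkb1 no support. In the hippocampus the log2 fold change of Nfkb1 was negative, and the difference between tissues was not tested.

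**Figure D5:**
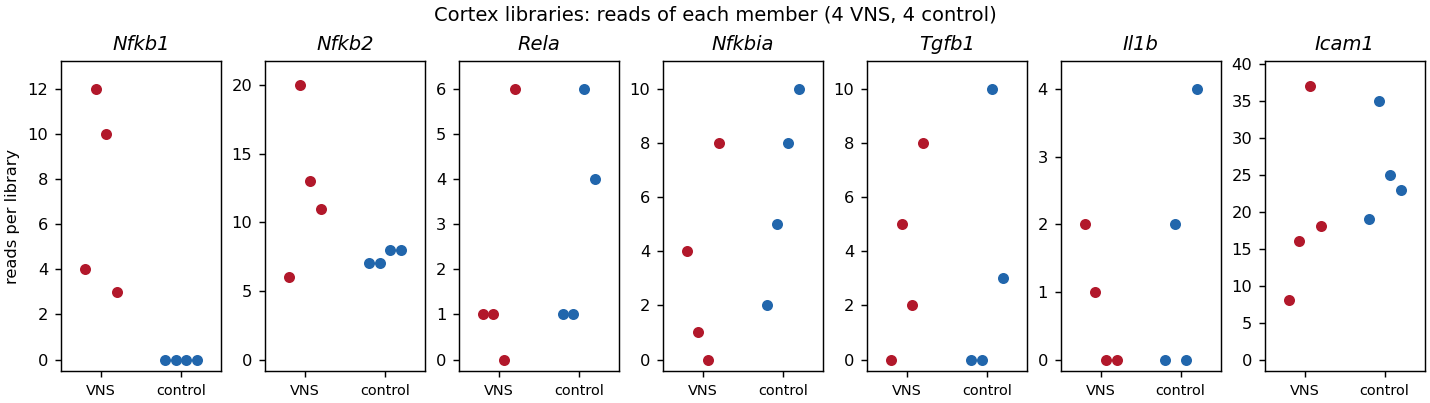
Reads of 7 members in cortex libraries (y axis, reads per library), VNS left and control right, with a point per library. Nfkb1 is at 0 in all 4 controls and at 3 to 12 reads in VNS libraries, and the other members overlap between the groups.

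No such separation was seen in the other members of cortex. Nfkb2 had 6, 20, 13 and 11 reads in VNS libraries and 7, 7, 8 and 8 in controls, with VNS library 1 under every control. Rela had 1, 1, 0 and 6 reads in VNS libraries and 1, 1, 6 and 4 in controls. Nfkbia had 4, 1, 0 and 8 reads in VNS libraries and 2, 5, 8 and 10 in controls, and its groups overlapped. For Tgfb1 there were 0, 5, 2 and 8 reads in VNS libraries and 0, 0, 10 and 3 in controls, so the order seen in the hippocampus was not detectable here. Il1b had 2, 1, 0 and 0 reads in VNS libraries and 0, 2, 0 and 4 in controls.

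Icam1 was the one member with enough reads on its record to be tested in the cortex. It had 8, 16, 37 and 18 reads in VNS libraries and 19, 35, 25 and 23 in controls, or 24.8, 47.6, 99.6 and 49.5 CPM in VNS libraries and 62.2, 82.7, 80.0 and 67.0 CPM in controls. VNS libraries 1, 2 and 4 lay below every control and VNS library 3 above. Icam1 averaged 55.4 ± 31.6 CPM in VNS libraries and 73.0 ± 9.90 CPM in controls (SD, n = 4 each), a log2 fold change of -0.39 (SE 0.39), and it did not pass (edgeR quasi-likelihood test, adjusted p = 0.99975). Without VNS library 3 the value was -0.83 (SE 0.41), and without VNS library 1 it was -0.15 (SE 0.38). In this comparison 1 of 3884 records passed (0.0257%), and 93 (2.39%) had an unadjusted p under 0.05.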

How the data were processed

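Counts per RefSeq transcript record were deposited by the authors, and the file headers give featureCounts 1.4.6-p2, strand option 1 for cortex and none for hippocampus and no paired-end option. Per the labels, cortex RNA was polyA-selected and hippocampal RNA ribosome-depleted. Build rn5, Bowtie2, Trimmomatic, edgeR, Subread, SAMtools 0.1.19 and FastQC 0.10.1 are named in the submitters' processing notes. Record length in bases, another value in the deposited files, gave CPM per kb. Symbols came from a RefSeq table of assembly GRCr8, which named 17339 of 18278 records, and 939 had none.

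In R 4.3.3, records were kept by edgeR 4.0.16's filterByExpr (minimum count 10, minimum total 15), scaled by TMM and tested within each tissue with glmQLFit and glmQLFTest, two-sided, with Benjamini-Hochberg adjustment at 0.05. The script was tested on simulated data. Alternatives were DESeq2 1.42.0, its size factors, no filter, counts summed per symbol, omission of ribosomal and 7SL RNA records, and leaving out libraries. Genes named from each pathway list are the 2 with the smallest hippocampal p. Likeness used log2(CPM + 0.5). Members, lists, tests and alternatives were chosen with earlier results of these data known. The 10 symbols were matched to records by RefSeq accession. One marker gene of the lists is not reported here and enters no sum. Limits for a count of 0 use 3 counts and cover counting error only.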

Additional observations from a re-analysis of the deposited data

Results flagged for a closer look

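A library far from the rest of its group of 4 was found in 5 of 41 groups of values examined, where chance gives about 1 in 20. Nfkb1 in hippocampal VNS library 1 stood at 21.4 CPM (1442 reads), below the 26.3 to 27.2 CPM of the other VNS libraries. Il6st in the same library stood at 169.1 CPM, above 144.5 to 147.0 CPM, and Ptgs2 at 46.7 CPM, above 17.0 to 20.7 CPM. This library was the deepest, and its counts had the lowest share of even values. Tgfb1 in hippocampal VNS library 3 stood at 9.76 CPM (48 reads), above 5.83 to 6.42 CPM, and Sod2 in that library at 69.9 CPM (344 reads), below 99.0 to 102.1 CPM. VNS library 3 was the one with 73.1% of its counts in ribosomal RNA. Whether depth or ribosomal content bears on these values was not tested.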

How the results depend on the processing

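The count of hippocampal records called, 0 with all libraries, was 17 with DESeq2 and ranged from 0 to 1377 when a library was left out, reaching 1377 without control library 3. It was 0 under DESeq2 size factors, no filter, counts summed per symbol, omission of ribosomal and 7SL RNA, and without control libraries 1 and 2. In the cortex 1 record was called with all libraries, 5 with no filter, and 0 to 4 when a library was left out. Of 104 recomputed hippocampal values of members, 4 changed sign, 2 each for Nfkb2 and Nfkbia. By more than the SD of log2(CPM + 0.5) within groups moved 5 values, 3 of them for Il1b, 1 for Nfkb1 and 1 for Tnf. Il1b and Tnf lie under 1 CPM, where the added 0.5 shrinks this SD, so their moves may not exceed the real spread between replicates. The cause of the sign changes and moves was not tested. Icam1 in the cortex kept its sign in 13 of 13 alternatives, from -0.83 to -0.15. No paired analysis was possible because the labels give the groups no shared replicate numbers. Few reads limit Tnf, Il1b and Il6 in the hippocampus and every member but Icam1 in the cortex. The strand setting of the cortex counts, which may be wrong, bears on all cortex values, those of Icam1 included.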
